A study of Mus musculus with 12 samples.

Results

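The comparison described here was between bone marrow-derived macrophages (BMDM) of Treml4-/- and wild type (wt) mice after 8 h of lipopolysaccharide (LPS). It rests on 4 RNA-seq libraries of the 12 in the series, 2 labelled as biological replicates of each genotype, and on the 12086 genes of 43280 that reached 1 CPM (reads of a gene scaled to the reads of its library) in at least 2 of the 12 libraries. The mice of both genotypes were on the C57BL6 background. All cells came from total bone marrow grown for 6 days with macrophage colony-stimulating factor (20 ng/ml), which both genotypes and all treatments shared, and LPS was given at 100 ng/ml. The other 8 libraries were vehicle-treated cells (M0) and cells after 12 h of LPS, 2 of each genotype, and are used here for the shared estimate of the spread, for the LPS response and for values side by side. The age of the mice and the Treml4 allele are not given in the sources used here.

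Treml4 (TREM-like transcript 4) is a single-pass receptor of the TREM family on myeloid cells. It binds dead cells and has been linked to signalling from endosomal Toll-like receptors. LPS, a component of the Gram-negative outer membrane, is sensed by TLR4 with CD14. TLR4 signals through MyD88 and TRIF to NF-kB, AP-1 and interferon regulatory factors, so that macrophages make cytokines and chemokines, then interferon-stimulated genes, and shift towards glycolysis.

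Treml4 itself had 4.0 and 3.95 CPM in the wt libraries after 8 h of LPS (198 and 213 reads) and 0 reads in both Treml4-/- libraries. With 3 reads per library taken as the limit that a count of 0 allows, its mRNA was at least 74.9-fold lower in Treml4-/- BMDM. No read was counted at M0 or at 12 h in Treml4-/- cells either, where wt cells had 6.57 to 8.35 CPM and 9.82 to 13.2 CPM. The gene lies on chromosome 17 from 48264295 to 48275360 on the plus strand (mm10, the build of GRCm38). The promoter of the targeted gene is given as in RefSeq for GRCm38.p6 (chr17:48264045-48264344, plus strand), from 250 bases before to 50 bases after the annotated start.

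Treml4: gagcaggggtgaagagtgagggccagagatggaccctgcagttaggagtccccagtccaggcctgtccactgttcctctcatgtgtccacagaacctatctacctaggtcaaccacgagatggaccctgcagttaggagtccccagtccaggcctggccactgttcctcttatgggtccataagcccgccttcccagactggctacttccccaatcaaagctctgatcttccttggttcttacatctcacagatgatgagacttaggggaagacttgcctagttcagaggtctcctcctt

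The 4 libraries had 49541818 to 58500792 reads on genes, so 1 read corresponded to 0.0171 to 0.0202 CPM. Their labelled cell type was checked on marker genes. The 9 macrophage markers found in the table summed to 10478 and 11719 CPM in wt and 9497 and 8866 CPM in Treml4-/-. Lyz2 was the largest part, at 5007 and 6514 CPM in wt and 4254 and 4019 CPM in Treml4-/-. Csf1r, the receptor for macrophage colony-stimulating factor, was at 1037 to 1219 CPM. Of the 9 markers, 3 had a log2 difference above 0 and 6 below. Summed B cell markers stayed at 0.223 to 0.747 CPM and T and NK cell markers at 1.27 to 1.5 CPM. Dendritic cell markers summed to 420 and 487 CPM in wt and 429 and 429 CPM in Treml4-/-. Most of that sum was Bst2, at 358 to 390 CPM. Osteoclast markers summed to 132 and 168 CPM in wt and 147 and 117 CPM in Treml4-/-. Both sums were highest in wt replicate 2. The 10 neutrophil markers found in the table summed to 175 and 154 CPM in wt and 230.0 and 204 CPM in Treml4-/-. Most of that sum was Mmp8, at 81.9 to 122 CPM, while Ly6g was at 0 to 0.0202 CPM. The 8 of them that were tested had a median log2 difference of 0.40, with 6 above 0 and 2 below. That median was 0.16 after the correction for GC content and transcript length described below. The part of neutrophil markers in the results below was not tested. In bulk RNA, fewer cells of a type and less of its RNA per cell cannot be told apart.

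After 8 h of LPS, 11 genes differed between Treml4-/- and wt BMDM by at least 1.4-fold at an adjusted p under 0.05 (limma on log2(CPM + 1), Benjamini-Hochberg adjustment over 12086 genes), which is 0.091% of the genes tested. Higher in Treml4-/- were 7 (0.0579%) and lower were 4 (0.0331%), Treml4 included. In each of them the 2 libraries of the one genotype did not overlap those of the other. This follows largely from their selection on the same values. Of all genes tested, 33.9% had both Treml4-/- libraries above both wt libraries and 18.0% both below. Another scaling changed the split of the called genes, to 6 higher and 7 lower with median of ratios size factors and to 5 higher and 6 lower after quantile normalization. Of the 11 genes, 8 were also called at M0 and 9 at 12 h of LPS, each in the same direction, out of 12 and 16 genes called at those times (0.0993% and 0.132% of the genes tested). Myo18b and Serpinb6b were called at 8 h only, which alone does not show that their difference varied with time.

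**Figure D1:**
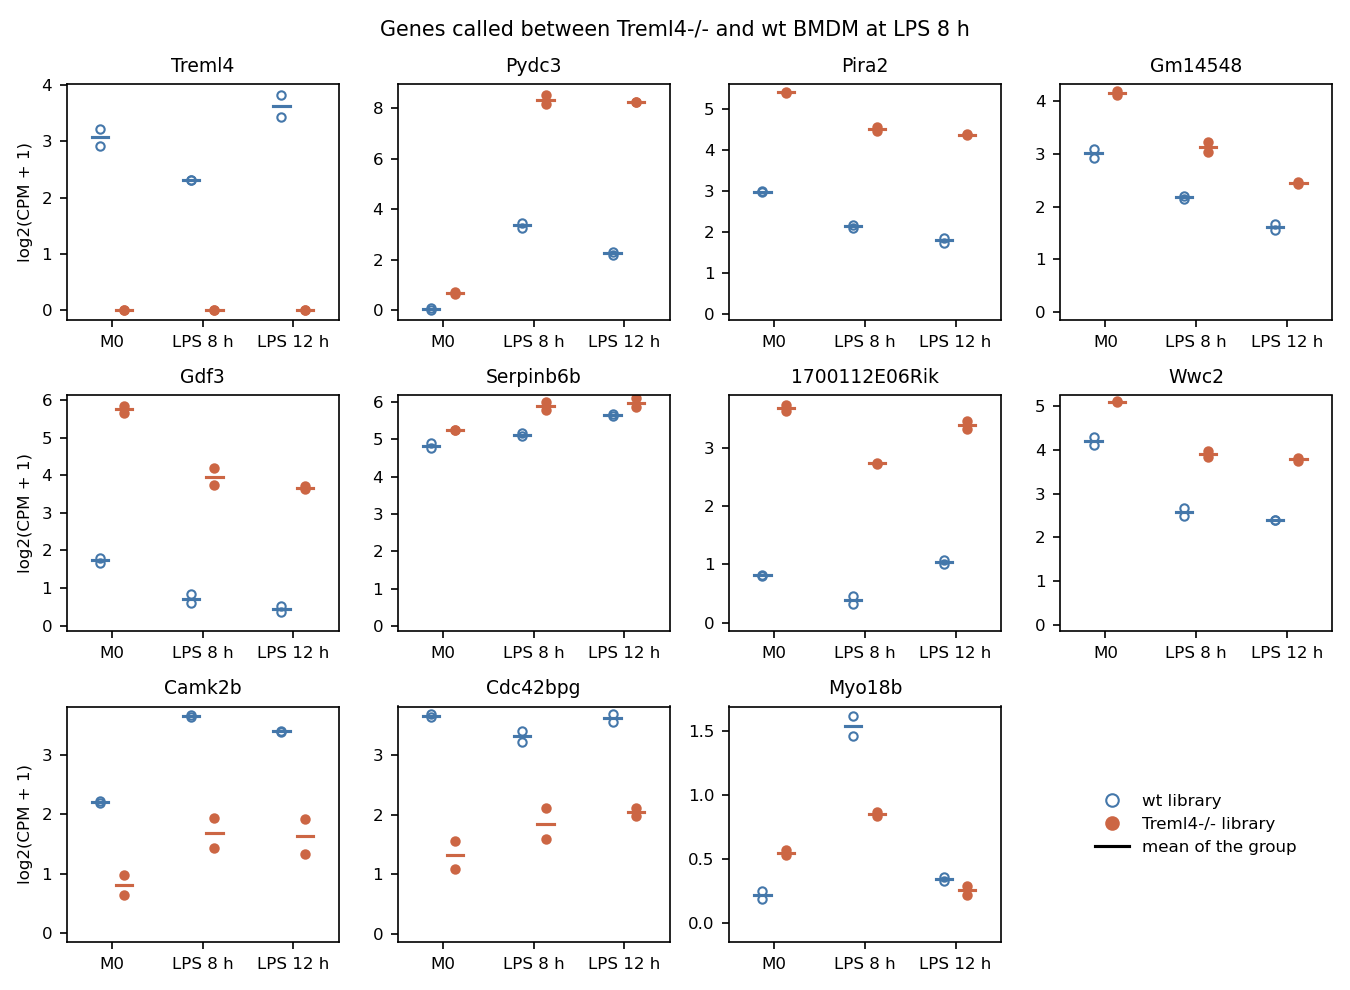
Level of the 11 called genes in each library (y axis, log2(CPM + 1)) at M0, LPS 8 h and LPS 12 h (x axis). Open points are wt and filled points Treml4-/- libraries, 2 per group, with the group mean as a bar; at LPS 8 h the groups do not overlap in any panel, and in the Myo18b panel the order of the genotypes at M0 is opposite to that at LPS 8 h.

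Among immune receptors and sensors, Pydc3 showed the widest difference. Pydc3, listed by RefSeq as another name of Ifi208, belongs to the interferon-inducible PYHIN family on chromosome 1, whose members bind DNA or regulate those that do. It had 8.50 and 10.1 CPM in wt and 285 and 366 CPM in Treml4-/-, a log2 difference of 4.98 ± 0.13 (SE, n = 2 per group, limma adjusted p = 9.7e-09). The lowest Treml4-/- library was thus far above the highest wt library. The gene was near 0 before LPS, at 0.0193 and 0.0787 CPM in wt and 0.550 and 0.636 CPM in Treml4-/-. At 12 h it had 4.01 and 3.61 CPM in wt and 307 and 301 CPM in Treml4-/-. PYHIN genes are near-identical copies in places, so reads could have been shared among them in the counting.

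Pira2 and Gm14548 are both members of the cluster on chromosome 7 that encodes activating paired immunoglobulin-like receptors, which signal through the FcR gamma chain. Pira2 had 3.55 and 3.32 CPM in wt and 22.7 and 21.3 CPM in Treml4-/- (log2 difference 2.37 ± 0.10, SE, n = 2, limma adjusted p = 6.8e-07). Gm14548 had 3.59 and 3.43 CPM in wt and 8.34 and 7.21 CPM in Treml4-/- (log2 difference 0.96 ± 0.12, SE, n = 2, limma adjusted p = 0.0090). Neither overlapped between the genotypes. The inhibitory receptor of the same cluster, Pirb, had 848 and 872 CPM in wt and 851 and 810 CPM in Treml4-/-, and its groups overlapped (log2 difference -0.05, adjusted p = 0.73 by limma). The members of this cluster resemble each other, and how reads that match several of them were counted is not given in the sources used here.

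The promoters of these 3 genes are set side by side to show how alike the loci are (RefSeq, GRCm38.p6, minus strand, written 5′ to 3′: Pira2 at chr7:3845002-3845301, Gm14548 at chr7:3898092-3898391 and Pirb at chr7:3720333-3720632). Capitals mark a match to GAGGAAGT, a core of sites bound by the myeloid factor PU.1, searched on both strands.

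Pira2: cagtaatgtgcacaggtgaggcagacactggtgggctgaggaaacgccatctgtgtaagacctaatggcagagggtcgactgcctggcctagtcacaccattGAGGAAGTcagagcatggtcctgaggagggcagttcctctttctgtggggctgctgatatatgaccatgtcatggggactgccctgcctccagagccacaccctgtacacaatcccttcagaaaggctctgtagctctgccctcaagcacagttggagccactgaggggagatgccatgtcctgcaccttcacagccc
Gm14548: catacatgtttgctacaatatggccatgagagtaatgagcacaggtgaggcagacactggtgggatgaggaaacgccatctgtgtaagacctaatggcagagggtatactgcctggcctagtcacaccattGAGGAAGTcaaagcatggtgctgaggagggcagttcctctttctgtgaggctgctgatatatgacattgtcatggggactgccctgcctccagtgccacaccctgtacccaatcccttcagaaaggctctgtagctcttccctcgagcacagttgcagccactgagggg
Pirb: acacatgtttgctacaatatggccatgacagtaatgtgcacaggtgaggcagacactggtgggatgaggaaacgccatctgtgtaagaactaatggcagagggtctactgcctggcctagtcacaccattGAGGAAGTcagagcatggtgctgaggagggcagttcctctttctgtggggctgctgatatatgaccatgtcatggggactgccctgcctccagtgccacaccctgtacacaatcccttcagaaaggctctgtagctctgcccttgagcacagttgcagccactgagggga

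In a global alignment, 287 of 300 bases were identical between the Gm14548 and Pirb promoters, 264 between Pira2 and Pirb and 257 between Pira2 and Gm14548. All 3 held the GAGGAAGT match, which 3.11% of 32544 RefSeq promoters of this length held. None of the 4 promoters printed held GAAANNGAA (the core of an interferon-stimulated response element, in 8.53% of all promoters) or TGANTCA (an AP-1 site, in 7.79%), both also searched on both strands.

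Among secreted and regulatory proteins, Gdf3, a ligand of the TGF-beta superfamily, had 0.787 and 0.520 CPM in wt and 17.1 and 12.2 CPM in Treml4-/-, a log2 difference of 3.23 ± 0.16 (SE, n = 2, limma adjusted p = 1.9e-06). At M0 the gene stood at 2.51 and 2.16 CPM in wt and 56.4 and 49.2 CPM in Treml4-/-. Its difference was called at all 3 times. Serpinb6b, an intracellular inhibitor of serine proteases, had 33.4 and 34.8 CPM in wt and 54.7 and 63.5 CPM in Treml4-/- (log2 difference 0.77 ± 0.11, SE, n = 2, limma adjusted p = 0.024). Its call was lost when each library was corrected for GC content and transcript length (0.54, limma adjusted p = 0.18), with median of ratios scaling or quantile normalization, and when any single library other than Treml4-/- replicate 1 was left out. Serpinb6a, its neighbour in the family, had a log2 difference of 0.30 that did not pass the test (limma adjusted p = 0.23).

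The kinases Camk2b and Cdc42bpg were lower in Treml4-/-. Camk2b, the beta subunit of calcium/calmodulin-dependent kinase II, had 11.4 and 11.7 CPM in wt and 2.85 and 1.72 CPM in Treml4-/- (log2 difference -1.95 ± 0.21, SE, n = 2, limma adjusted p = 0.0024). Cdc42bpg, a kinase that binds the GTPase Cdc42, had 8.38 and 9.65 CPM in wt and 2.00 and 3.31 CPM in Treml4-/- (log2 difference -1.47 ± 0.19, SE, n = 2, limma adjusted p = 0.012). Of their relatives, Camk2d had a difference of 0.31 and Cdc42bpa of 0.66, neither of which passed the test (limma adjusted p = 0.23 and 0.14). These were the largest among the relatives tested, and the others lay between -0.04 and 0.05. The transcripts of Camk2d and Cdc42bpa had a GC content of 43.9% and 44.9%, and their differences were 0.03 and 0.39 after correction. Wwc2, a scaffold protein related to KIBRA in the Hippo pathway, was higher, with 4.64 and 5.35 CPM in wt and 14.7 and 13.4 CPM in Treml4-/- (log2 difference 1.33 ± 0.11, SE, n = 2, limma adjusted p = 0.00029).

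The remaining 2 genes were expressed at low levels. 1700112E06Rik (Lrmda in RefSeq, a leucine-rich repeat protein) on chromosome 14 had 12 and 20 reads in wt and 332 and 307 reads in Treml4-/-, or 0.242 and 0.371 against 5.68 and 5.62 CPM (log2 difference 2.35 ± 0.11, SE, n = 2, limma adjusted p = 1.2e-06). Myo18b, an unconventional myosin, had 87 and 112 reads in wt and 46 and 45 in Treml4-/-, or 1.76 and 2.08 against 0.786 and 0.823 CPM (log2 difference -0.69 ± 0.10, SE, n = 2, limma adjusted p = 0.021). At M0 the difference of Myo18b was 0.33 (limma adjusted p = 0.82), with 0.193 and 0.138 CPM in wt and 0.448 and 0.486 CPM in Treml4-/-. Its call was lost with 0.1 in place of 1 added to the CPM and with limma-voom on the reads.

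A change of the genotype difference between M0 and 8 h of LPS was tested as an interaction. It was called for 1 gene (0.00827% of the genes tested), Pydc3, at 4.38 on the log2(CPM + 1) scale (limma adjusted p = 1.6e-06). On the recovered reads, where 1 is not added to the CPM, limma-voom gave 1.54 with an adjusted p of 0.74, so the call held on the first scale only. At M0 the gene had 1 and 4 reads in wt and 27 and 34 in Treml4-/-, so that its difference before LPS depended on what is added before taking logs. The interaction of Myo18b was -1.02 (limma adjusted p = 0.068). No gene was called for a change between 8 h and 12 h of LPS (0.0% of those tested; 388 of 12086 at an unadjusted p under 0.05, limma), and limma-voom called none.

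Several immune and metabolic genes lay just outside the threshold. Slc4a7, a bicarbonate transporter, had 9.35 and 10.1 CPM in wt and 17.5 and 17.7 CPM in Treml4-/- (difference 0.80, limma adjusted p = 0.074). Rab4a, a GTPase of endosome recycling, had 1.15 and 0.631 CPM in wt and 0.0342 and 0.110 CPM in Treml4-/- (-0.81, limma adjusted p = 0.077), and its difference was called at M0 and at 12 h. The guanylate-binding protein Gbp4 had 411 and 370 CPM in wt and 580 and 687 CPM in Treml4-/- (0.69, limma adjusted p = 0.093). None of these overlapped between the genotypes, which was common among all genes tested (33.9% above wt and 18.0% below without overlap). Lipg, the endothelial lipase, had 51.5 and 39.9 CPM in wt and 27.3 and 25.6 CPM in Treml4-/- (-0.76, limma adjusted p = 0.10), and it was called at 12 h. Slc15a2, a peptide transporter named after its values were seen, had the second-highest difference in the plot of all genes (3.28) without passing the test (limma adjusted p = 0.13), with 1.76 and 0.260 CPM in wt and 6.05 and 45.5 CPM in Treml4-/-. It was called when Treml4-/- replicate 1 was left out.

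Over all genes the median log2 difference at 8 h was 0.07, a value that rests on the scaling by library size, since median of ratios scaling gave -0.00058 and quantile normalization -0.02. With library-size scaling, at an unadjusted p under 0.05 there were 1842 genes higher (15.2%) and 697 lower (5.77%). At M0 these counts were 273 and 132, and at 12 h they were 661 and 251. The 2 Treml4-/- libraries were both above both wt libraries for 4096 genes (33.9%) and both below for 2179 (18.0%).

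The size and sign of the difference followed the GC content of the transcripts. When 11974 genes with a known transcript were ordered by GC content and divided into 10 equal bins, the median difference at 8 h fell steadily from 0.37 in the lowest bin (31.9 to 41.9% GC) to -0.10 in the highest (57.9 to 73.7% GC). In the lowest bin 45.2% of genes were higher at an unadjusted p under 0.05 and 0.167% lower, and in the highest 2.09% were higher and 17.1% lower. Across genes, Spearman's rho between GC content and the difference was -0.61 at 8 h, -0.26 at M0 and -0.21 at 12 h; these are descriptions, since the genes come from the same 4 libraries. The median in the lowest bin was 0.13 at M0 and 0.08 at 12 h. Transcript length ran along the same bins, with a median of 4003 bases in the lowest and 2367.5 in the highest. Its rho with the difference at 8 h was 0.21, and the parts of GC content and length were not tested apart.

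**Figure D2:**
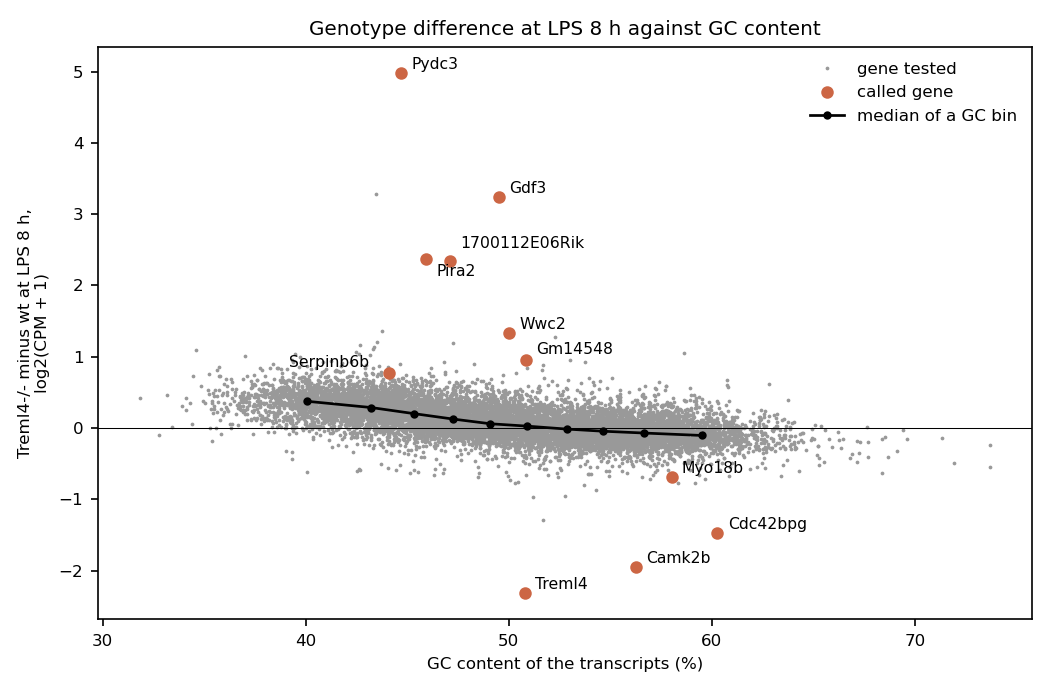
Treml4-/- minus wt difference at LPS 8 h (y axis, log2(CPM + 1)) of each gene tested against the GC content of its transcripts (x axis, %), with the 11 called genes marked and the median of each of the 10 bins joined by a line. The line falls from 0.37 to -0.10, and the called genes lie well away from it.

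The slope was not shared equally by the libraries. In the lowest GC bin, the median deviation from the mean of the 4 libraries was -0.27 for wt replicate 1, -0.09 for wt replicate 2, -0.01 for Treml4-/- replicate 1 and 0.38 for Treml4-/- replicate 2. Per 10 points of GC content the libraries changed by 0.16, 0.08, -0.02 and -0.22 log2 units in the same order. The slopes of the genotypes did not overlap, and the difference of -0.24 had p = 0.33 in a two-sided exact permutation test of the 4 slopes, the smallest that 2 against 2 libraries can give. GC content and genotype therefore cannot be told apart by these 4 libraries. At M0 and at 12 h the slopes of the genotypes overlapped (exact permutation p = 0.67 each).

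**Figure D3:**
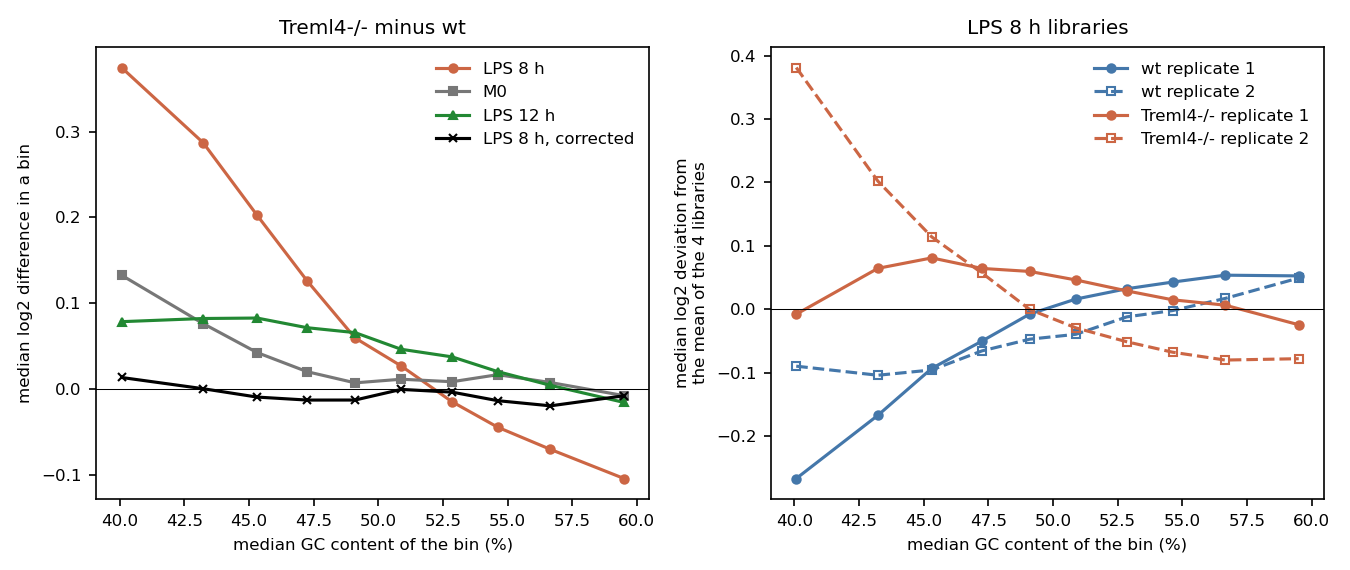
Median log2 difference between Treml4-/- and wt in each of 10 bins of the genes by GC content at M0, LPS 8 h and LPS 12 h, and at LPS 8 h after correction (left), and median log2 deviation of each LPS 8 h library from the mean of the 4 (right), against the median GC content of the bin (x axis, %). The LPS 8 h line is the steepest on the left, and on the right wt replicate 1 and Treml4-/- replicate 2 stand farthest apart at low GC content.

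Correcting each library for GC content and transcript length removed the slope by construction and left medians of -0.02 to 0.01 in the 10 bins. It gave 15 called genes (0.125% of 11974), which included 10 of the 11 above. Serpinb6b was lost, and Gm10524, Gm15446, Lipg, Ndrg4 and Rab4a were added (Gm10524 is named for this call, after its values were seen). Unadjusted, 787 genes were then higher (6.57%) and 1050 lower (8.77%). The correction also centres every library, so this balance of higher and lower genes is set by its construction.

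A single library set how many genes passed. Without Treml4-/- replicate 1, 599 genes were called, 575 higher and 24 lower, and all 11 genes above were among them. Of the 587 with a known GC content, 474 (80.7%) lay in the lowest of 5 equal bins by GC content, which holds 20.0% of all genes tested, and their median GC content was 41.1%. Without Treml4-/- replicate 2, 9 genes were called. Without wt replicate 1 there were 21 and without wt replicate 2 there were 8. Serpinb6b lost its call in all 3 of these fits, Myo18b without either replicate 2, and Cdc42bpg and Gm14548 without wt replicate 2. In each fit the lone library of a group was assumed to vary like the other groups.

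The LPS response itself was defined from 12 h of LPS against M0, averaged over the genotypes, without any 8 h library. At least 2-fold and an adjusted p under 0.05 (limma) made 1294 genes LPS-induced (10.7%) and 4885 LPS-repressed (40.4%). Scaling decided that split, since median of ratios size factors gave 2465 induced and 2126 repressed and quantile normalization 2159 and 2433. LPS-induced genes had a median difference of 0.05 between the genotypes at 8 h, with members on both sides. At an unadjusted p under 0.05, 250 genes were above wt (19.3%) and 158 below (12.2%), beside 15.2% and 5.77% of all genes, with 1 called in each direction, Pydc3 and Camk2b. LPS-repressed genes had the same median, 0.05, with 523 higher (10.7%) and 198 lower (4.05%), and 4 called higher, namely Gdf3, Pira2, Wwc2 and Gm14548. Genes in neither class had a median of 0.09, and all genes 0.07. The 345 genes induced at least 8-fold had a median of 0.01, with 61 higher (17.7%) and 58 lower (16.8%). After correction their median was -0.10, with 27 higher and 82 lower, beside 6.57% higher and 8.77% lower of all genes. With median of ratios scaling their median was -0.08. The 487 genes repressed at least 8-fold had a median of 0.11 (0.07 after correction), with 55 higher (11.3%) and 9 lower (1.85%) before correction.

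Both classes carried the GC pattern. In the lowest of the 5 GC bins the medians were 0.34 for LPS-induced genes, 0.30 for LPS-repressed genes and 0.35 for the others. In the highest bin they were -0.17, -0.06 and -0.11. At an unadjusted p under 0.05, 149 of 336 LPS-induced genes of the lowest bin were higher and 3 lower, and 3 of 175 in the highest bin were higher and 53 lower. After correction the median of LPS-induced genes was -0.05, with 100 higher and 230 lower, and that of LPS-repressed genes 0.00, with 288 higher and 310 lower. Of all genes, 6.57% were then higher and 8.77% lower. The sign of the median of LPS-induced genes thus changed with the correction, as it did with median of ratios scaling (-0.03).

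**Figure D4:**
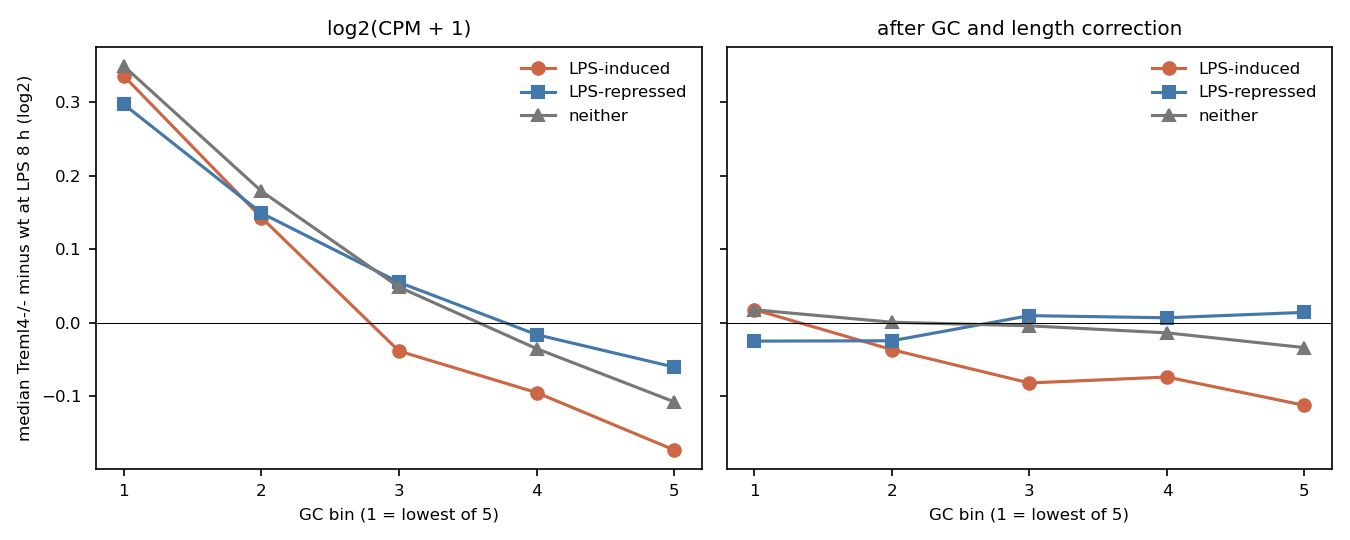
Median Treml4-/- minus wt log2 difference at LPS 8 h (y axis) of LPS-induced, LPS-repressed and other genes in 5 bins of the genes by GC content (x axis, 1 is the lowest), before (left) and after (right) correction for GC content and transcript length. On the left all 3 lines fall with GC content, from 0.30 to 0.35 down to -0.17 to -0.06, and on the right LPS-induced genes run from 0.02 to -0.11.

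None of the 4 LPS-induced genes with the largest LPS response was called at 8 h by limma, nor were the others whose values follow. Pydc3, called above, was 1 of the 345 genes induced at least 8-fold. That class averages the LPS response over both genotypes, so the high Treml4-/- level of Pydc3 at 12 h helped to place it there. Its membership is therefore not independent of its genotype difference. Nos2, the inducible nitric oxide synthase, had 19425 and 17094 CPM in wt and 17083 and 16756 CPM in Treml4-/- (difference -0.11, limma adjusted p = 0.78). The chemokine Cxcl9 had 6081 and 6973 CPM in wt and 5617 and 6647 CPM in Treml4-/- (-0.09, limma adjusted p = 0.83, and -0.36 after correction), and its libraries overlapped between the genotypes. The libraries of Nos2, Ccl5, Ptgs2 and Rsad2 did not overlap, those of Nos2 by a narrow margin. Such separation was common, with 33.9% of all genes tested above wt and 18.0% below without overlap. The chemokine Ccl5 had 3261 and 3474 CPM in wt and 2400.0 and 2820.1 CPM in Treml4-/- (difference -0.37, limma adjusted p = 0.19). The prostaglandin synthase Ptgs2 had 1866 and 2082 CPM in wt and 2239 and 2909 CPM in Treml4-/- (0.37, limma adjusted p = 0.32, and 0.01 after correction). The antiviral gene Rsad2 had 5324 and 4841 CPM in wt and 6627 and 7449 CPM in Treml4-/- (0.47, limma adjusted p = 0.14, and 0.20 after correction).

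Of 31 lists of functionally related genes, only the TREM family and the PYHIN genes held a called member, Treml4 and Pydc3. The counts that follow are of members at an unadjusted p under 0.05, to be read beside 15.2% higher and 5.77% lower among all genes tested. Counts after correction are to be read beside 6.57% higher and 8.77% lower of all genes.

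LPS sensing was mixed. Of 23 Toll-like receptor and adaptor genes tested, 5 were higher and 2 lower, with a median of 0.00. Tlr4, the LPS receptor, had 20.2 and 21.2 CPM in wt and 33.5 and 48.2 CPM in Treml4-/- (0.93 ± 0.18, SE, n = 2, limma adjusted p = 0.10, and 0.56 after correction). Its transcripts had a GC content of 39.4%, and the parts of GC content and length in the correction were not tested apart. Tlr13, a sensor of bacterial ribosomal RNA, had 75.2 and 52.4 CPM in wt and 124 and 109 CPM in Treml4-/- (0.88 ± 0.17, SE, n = 2, limma adjusted p = 0.10, and 0.60 after correction). Neither overlapped between the genotypes, and neither passed the test. Of all genes tested, 33.9% were above wt without overlap. Tlr13 was called in the fit with a replicate block (limma adjusted p = 0.032) and when wt replicate 1 was left out. Cd14, the co-receptor for LPS, had 563 and 521 CPM in wt and 459.9 and 344 CPM in Treml4-/- (-0.44, limma adjusted p = 0.24). Of the other TREM family and adaptor genes, Trem1 had a difference of -0.43 and Trem2 of -0.17 (limma adjusted p = 0.20 and 0.45).

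Downstream, the lists of NF-kB and AP-1 genes had negative medians before and after correction. Of 16 NF-kB subunits and feedback genes 6 were lower (37.5%) and 0 higher, with a median of -0.28 (-0.25 after correction). Nfkb2, the precursor of the p52 subunit, had 259 and 360.4 CPM in wt and 211 and 203 CPM in Treml4-/- (-0.56, limma adjusted p = 0.17). Nfkbib, an inhibitor of NF-kB, had a difference of -0.44 and Nfkbia, another, of -0.19 (limma adjusted p = 0.15 and 0.24). Of 21 AP-1 and immediate early factors 6 were lower (28.6%) and 0 higher, with a median of -0.11 (-0.10 after correction), among them Junb (-0.42), Ier2 (-0.55) and Nr4a1 (-0.53), each with a limma adjusted p of 0.15 or 0.16. Median GC contents of both lists were above that of all genes, at 55.1% and 56.2%. The same medians at M0, in other libraries, were -0.13 and -0.10, and at 12 h -0.16 and -0.16.

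Among secreted products, 2 of 19 cytokine and related genes were higher and 5 lower (median -0.09, -0.18 after correction, and -0.17 to -0.01 with single libraries left out). Cd40, a co-stimulatory receptor kept in that list, had 2325 and 2546 CPM in wt and 2074 and 1834 CPM in Treml4-/- (-0.32, limma adjusted p = 0.21). Il10, the anti-inflammatory cytokine, had 95.6 and 53.0 CPM in wt and 104 and 102 CPM in Treml4-/- (0.53, limma adjusted p = 0.23). Of 20 chemokines, 2 were higher and 4 lower, with a median of 0.05 that turned to -0.14 after correction, to -0.05 with median of ratios scaling and to -0.05 without wt replicate 2. Cxcl1, a neutrophil attractant, had 11.2 and 9.12 CPM in wt and 7.62 and 5.03 CPM in Treml4-/- (-0.62, limma adjusted p = 0.18, and -0.83 after correction).

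Of 40 interferon-stimulated antiviral genes 8 were higher and 3 lower, and the median of 0.05 turned to -0.03 after correction and to -0.05 with median of ratios scaling. Mx1, which blocks influenza-like viruses, had 1332 and 1248 CPM in wt and 1757 and 2163 CPM in Treml4-/- (0.60, limma adjusted p = 0.12, and 0.46 after correction). Herc6, the ligase for ISG15, had a difference of 0.59 (limma adjusted p = 0.15, and 0.21 after correction). Of 9 PYHIN genes 5 were higher and 0 lower. Their median of 0.40 became 0.06 after correction and 0.07 without Treml4-/- replicate 2, and their median GC content was 40.6%. Aim2, which forms an inflammasome on cytosolic DNA, had 31.9 and 33.3 CPM in wt and 45.9 and 55.8 CPM in Treml4-/- (0.62, limma adjusted p = 0.15). Ifi204 had a difference of 0.26 that was -0.06 after correction.

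Glycolysis was the list with the largest share of lower genes. Of 18 genes 11 were lower (61.1%) and 0 higher, the median was -0.24 (-0.21 after correction), and it lay between -0.30 and -0.16 when single libraries were left out. At M0 the median was 0.08 and at 12 h -0.15. Pfkl, the liver-type phosphofructokinase, had 217 and 282 CPM in wt and 185 and 175 CPM in Treml4-/- (-0.45, limma adjusted p = 0.14). Slc16a3, the lactate exporter, had 469 and 528 CPM in wt and 395 and 351 CPM in Treml4-/- (-0.42, limma adjusted p = 0.12). Gapdh had 2433 and 2267 CPM in wt and 2051 and 1906 CPM in Treml4-/- (-0.25, limma adjusted p = 0.21). In each of these the Treml4-/- libraries were both below both wt libraries, as in 18.0% of all genes tested, and none passed the adjusted threshold. Of 19 targets of HIF-1, the hypoxia-inducible factor that drives glycolytic genes, 6 were lower and 0 higher (median -0.13, -0.21 after correction, and -0.21 to -0.04 with single libraries left out), among them Adm (-0.47) and Bhlhe40 (-0.42; limma adjusted p = 0.15 and 0.22).

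Mitochondrially encoded mRNAs went the other way. Of 12 tested 9 were higher and 0 lower, with a median of 0.72, and they took 0.654 and 0.517% of reads in wt and 0.811 and 1.11% in Treml4-/- together with the other mitochondrial genes. The cytochrome oxidase gene mt-Co1 had 3659 and 3009.7 CPM in wt and 4808 and 6159 CPM in Treml4-/- (0.71, limma adjusted p = 0.15). The NADH dehydrogenase gene mt-Nd2 had 227 and 133 CPM in wt and 258 and 389 CPM in Treml4-/- (0.86, limma adjusted p = 0.17). The median GC content was 37.4%, the lowest of all lists, and the median became 0.36 after correction, 0.41 without Treml4-/- replicate 2 and 1.09 without Treml4-/- replicate 1. At M0 it was -0.14. The nuclear genes of the respiratory chain had a median of -0.04 (0.06 without wt replicate 1 and 0.03 without Treml4-/- replicate 2), with 4 of 77 higher, among them Ndufa5 (0.46), and 5 lower, among them Cox7a2l (-0.34; limma adjusted p = 0.16 and 0.15).

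Of 23 genes of cholesterol synthesis and uptake, 8 were higher (34.8%) and 0 lower, with a median of 0.23 (0.14 after correction, and 0.11 without Treml4-/- replicate 1) and 0.03 at M0. Hmgcs1, the cytosolic enzyme that supplies the pathway with HMG-CoA, had 17.3 and 19.6 CPM in wt and 28.6 and 31.0 CPM in Treml4-/- (0.67, limma adjusted p = 0.10, and 0.38 after correction). Idi1, an isomerase of the same pathway, had 2.14 and 2.86 CPM in wt and 3.54 and 5.76 CPM in Treml4-/- (0.67, limma adjusted p = 0.18). Lpl, the lipoprotein lipase, had 1405 and 1416 CPM in wt and 2211 and 2045 CPM in Treml4-/- (0.59, limma adjusted p = 0.10, and 0.31 after correction), and the scavenger receptor Cd36 a difference of 0.55 (limma adjusted p = 0.13, and 0.18 after correction). Lipid droplet and lipase genes together had 2 of 14 higher, Lpl and Cd36, and 3 lower, with a median of -0.08. Apoe, the apolipoprotein and LXR target, had 672 and 864 CPM in wt and 578 and 558 CPM in Treml4-/- (-0.42, limma adjusted p = 0.21). The 11 LXR targets tested had a median of -0.15, with 0 higher and 1 lower, and the median was 0.04 without wt replicate 2 and -0.33 without wt replicate 1.

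Of 24 genes of matrix remodelling 3 were higher and 5 lower, with a median of -0.02 that lay between -0.07 and 0.16 with single libraries left out. Spp1, osteopontin, had 644 and 613 CPM in wt and 1026 and 1122 CPM in Treml4-/- (0.77, limma adjusted p = 0.10, and 0.51 after correction). Timp1, an inhibitor of matrix metalloproteinases, had 74.1 and 129 CPM in wt and 48.9 and 51.2 CPM in Treml4-/- (-0.95, limma adjusted p = 0.12, and -0.93 after correction). The groups did not overlap for either gene, and the wt libraries lay far apart for Timp1. Without overlap, 33.9% of all genes tested were above wt and 18.0% below.

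**Figure D5:**
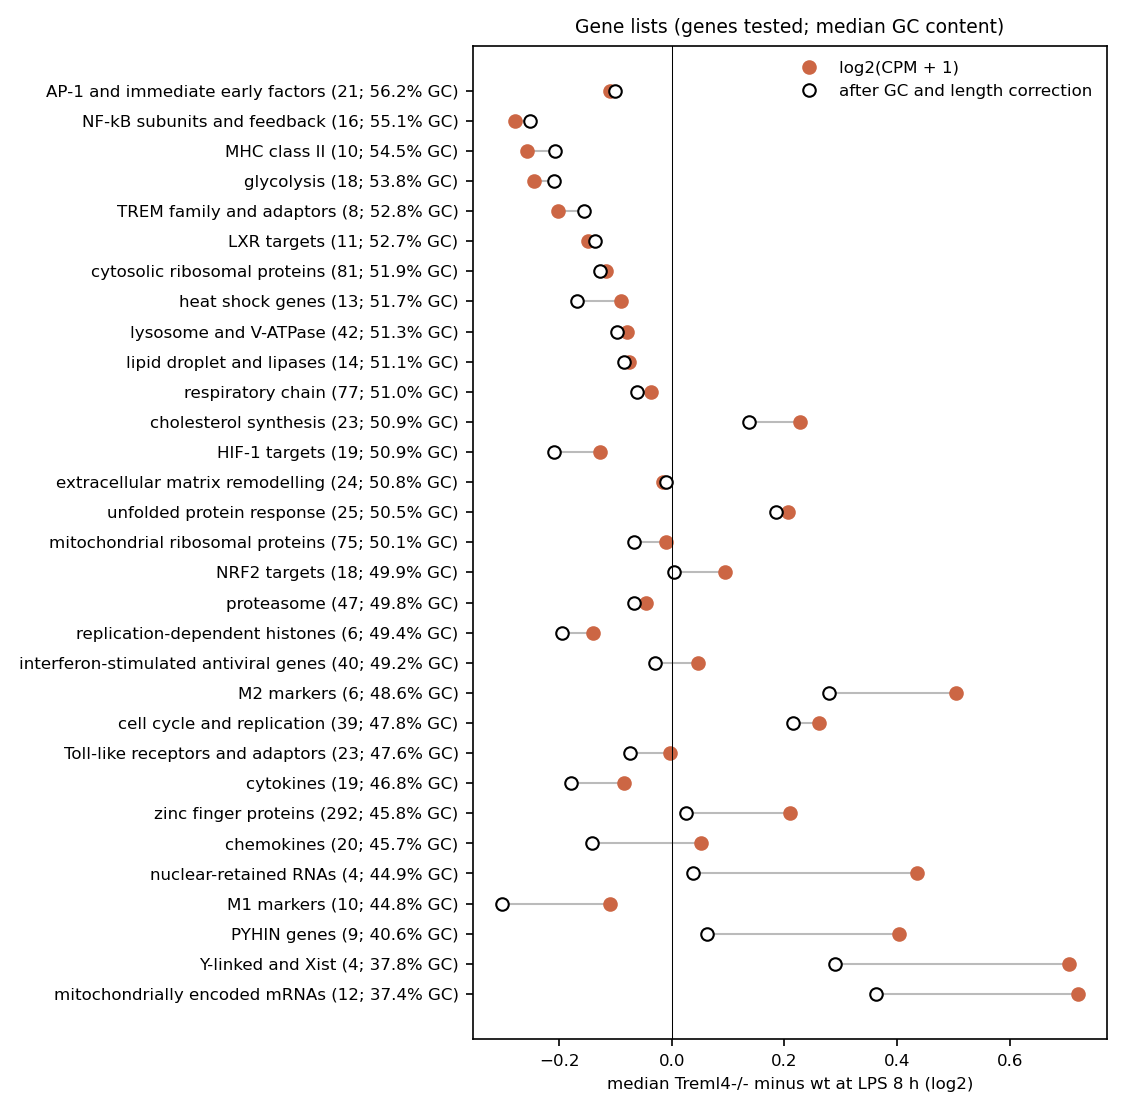
Median Treml4-/- minus wt log2 difference at LPS 8 h (x axis) of each gene list (y axis, with the number of genes tested and the median GC content, ordered by GC content), before (filled) and after (open) correction for GC content and transcript length. Most lists of low GC content at the bottom move to the left with correction, mitochondrially encoded mRNAs from 0.72 to 0.36 and M1 markers from -0.11 to -0.30, and glycolysis stays at -0.24 and -0.21.

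Cytosolic ribosomal protein genes had a median of -0.12, with 2 of 81 higher and 8 lower (1 and 19 after correction). The median was -0.21 with median of ratios scaling and 0.03 without Treml4-/- replicate 2. Among the lower ones were Rps14 (-0.38) and Rplp0 (-0.30; limma adjusted p = 0.18 and 0.19). Mitochondrial ribosomal protein genes had -0.01 (3 of 75 higher, such as Mrpl1 at 0.41 and Mrps22 at 0.37, and 2 lower), proteasome genes -0.05 (5 of 47 higher, such as Psmc6 at 0.50 and Psme4 at 0.47, and 3 lower) and lysosome and V-ATPase genes -0.08 (2 of 42 higher, Atp6v1a at 0.41 with the largest difference, and 2 lower, Npc2 at -0.28 among them). With single libraries left out these 3 medians lay between -0.08 and 0.09, between -0.12 and 0.05 and between -0.15 and -0.02. All of these shares of higher genes were below that of all genes tested. After correction the difference of Mrpl1 was 0.09 and that of Atp6v1a 0.17.

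Stress programmes differed among themselves. The unfolded protein response had 5 of 25 genes higher and 1 lower (median 0.21, 0.18 after correction, 0.04 without wt replicate 2 and 0.41 without wt replicate 1), with Asns at 0.59 and Dnajb9 at 0.57 (limma adjusted p = 0.21 and 0.17). NRF2 targets had 4 of 18 higher and 3 lower (median 0.10, 0.00 after correction, and 0.01 without wt replicate 2), with Me1 at 0.51 and Slc7a11 at 0.42 (limma adjusted p = 0.15 and 0.19). Heat shock genes had 0 of 13 higher and 4 lower (median -0.09, -0.17 after correction, and -0.22 without wt replicate 1), with Hspa1a at -0.59 and Hspa8 at -0.27 (limma adjusted p = 0.20 and 0.18). The metallothionein Mt1, outside these lists, had 168 and 191 CPM in wt and 123 and 129 CPM in Treml4-/- (-0.50, limma adjusted p = 0.10).

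Of 10 M1 markers, genes of inflammatory macrophages, 0 were higher and 2 lower, with a median of -0.11. After correction 4 were lower and the median was -0.30, and with single libraries left out it lay between -0.25 and -0.05. Of 6 M2 markers 0 were higher and 1 lower, and the median of 0.50 (0.28 after correction) turned to -0.11 without wt replicate 2. Of 10 MHC class II genes none reached an unadjusted p under 0.05 in either direction by limma. Their median of -0.26 was -0.07 without wt replicate 2, in which they summed to 2451 CPM, against 1339 to 1566 CPM in the other 3 libraries. Cell cycle genes had 3 of 39 higher and 0 lower (median 0.26, 0.43 at M0, 0.08 without wt replicate 2 and 0.53 without wt replicate 1). Among them Top2a, a topoisomerase of dividing cells, had 6.90 and 2.71 CPM in wt and 11.5 and 10.4 CPM in Treml4-/- (1.14, limma adjusted p = 0.17), and the kinetochore motor Cenpe had a difference of 0.74 (limma adjusted p = 0.19). The 6 replication-dependent histone genes tested had a median of -0.14 (-0.23 to -0.01 with single libraries left out), and none of them reached an unadjusted p under 0.05 by limma.

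Zinc finger protein genes, a large class of mostly low-level transcripts with a median GC content of 45.8%, had 75 of 292 higher (25.7%) and 3 lower (1.03%). Their median of 0.21 became 0.03 after correction and 0.10 without Treml4-/- replicate 2. Zfp445, a regulator of imprinting, had 4.97 and 7.17 CPM in wt and 8.55 and 15.5 CPM in Treml4-/- (0.84, limma adjusted p = 0.15), and Zfp329 had 0.908 and 1.10 against 1.52 and 4.23 CPM (0.86, limma adjusted p = 0.19). In both, Treml4-/- replicate 2 was the highest library. Neat1, a long RNA retained in nuclear paraspeckles, had 36.8 and 39.0 CPM in wt and 67.3 and 115 CPM in Treml4-/- (1.19, limma adjusted p = 0.17), again highest in Treml4-/- replicate 2. The 4 Y-linked genes tested, present in all libraries while Xist stayed at 0 to 0.0513 CPM, had a median of 0.71 (0.29 after correction), with Eif2s3y at 1.03, Uty at 0.73, Ddx3y at 0.68 and Kdm5d at 0.48; without Treml4-/- replicate 2 the median was 0.31, and Ddx3y was then -0.11.

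Genes near Treml4 on chromosome 17 showed no called difference. Of 23 genes tested within 1 Mb on either side, 0 were called, and 1 was above and 4 below wt at an unadjusted p under 0.05, with a median of -0.03. Within 10 Mb, 0 of 132 were called by limma, with 7 above and 17 below wt at an unadjusted p under 0.05 and a median of -0.08. Of all genes tested, 0.091% were called, so 0 calls among so few genes carry little information. At an unadjusted p under 0.05, 15.2% of all genes were higher and 5.77% lower. Whether the lower genes near Treml4 depart from these shares was not tested.

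Of 1204 LPS-induced genes with a promoter sequence, 171 (14.2%) held the GAAANNGAA core and 106 (8.80%) the AP-1 match, against 7.58% and 5.27% of the promoters of genes tested and 8.53% and 7.79% of all promoters. In LPS-repressed genes these shares were 6.08% and 4.62%. The shares describe the LPS classes and were not tested against the genotype difference.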

How the data were processed

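BMDM of 2 genotypes were sequenced (stranded poly(A) libraries, paired-end). Per the labels reads were aligned to mm10 with STAR; the study's methods name DESeq2, EdgeR and limma in the authors' workflow. The deposited values were log2 CPM per gene. Testing the file showed that they are log2 of CPM with 0.25 reads added per library (scaled by library size), from which whole reads were recovered for 100% of values (tolerance 0.01 reads). The tests had been planned for CPM, so the values were converted back to CPM. Filter: 1 CPM in at least 2 libraries. Log2(CPM + 1) was fitted with limma 3.58.1 in R 4.3.3 (1 mean per group, all 12 libraries, eBayes with trend, two-sided tests, Benjamini-Hochberg adjustment). This scale understates changes of low genes. A call required an adjusted p under 0.05 and 1.4-fold. Lists were described by counts and medians.

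GC content and length came from GENCODE M21 transcripts by symbol (11974 of 12086 genes). For correction, each library's deviation from the mean of its time point was fitted on splines with 5 degrees of freedom of GC content and log2 length, and subtracted. Reads on genes per library ranged from 48008751 to 58500792. Replicates of a group differed beyond counting noise (chi-square per degree of freedom 45.1 and 54.0 at LPS 8 h). P-values measure the spread between these libraries; whether replicates came from separate mice is not stated. No technical batch is given by the labels. The gene lists, the members and the alternatives were chosen with earlier results of these data known. The genes that can be named were Treml4, the called genes, the 8 smallest p-values not called in each direction, per list the 3 highest and the 2 with the largest difference at an unadjusted p under 0.05, per LPS class the 4 largest responses, neighbours of Treml4, marker genes and paralogs of called genes. The values of 1 gene under this rule are not reported here. Alternatives were another pseudocount (0.1), filter (none or 5 CPM), scaling, fit, correction and each 8 h library left out. The fits were tested on simulated data. Promoters are RefSeq sequences (GRCm38.p6).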

Additional observations from a re-analysis of the deposited data

Results flagged for a closer look

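The genotype difference of Pydc3 changed between M0 and LPS 8 h by 4.38 on the log2(CPM + 1) scale (interaction, limma adjusted p = 1.6e-06), with Treml4-/- above wt in every library at both times; limma-voom on the reads gave 1.54 (adjusted p = 0.74). Myo18b was lower in both Treml4-/- libraries at LPS 8 h and higher in both at M0, by 0.33, and the interaction test of that change gave an adjusted p of 0.068 by limma. Groups of 2 libraries are too small for a check of single libraries that stand apart.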

How the results depend on the processing

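Of the 11 genes called at LPS 8 h, Treml4, Pydc3, Gdf3, Pira2 and 1700112E06Rik were called under every alternative. The count was 7 without a filter on low values, where 22793 genes were tested, 5 in the fit of the 4 LPS 8 h libraries alone, where the spread has fewer degrees of freedom, and 8 to 599 with single libraries left out (21 without wt replicate 1). The interaction was called for 2 genes after GC content and length correction, for 2 without a filter, for 0 with limma-voom on the reads (the count at an unadjusted p under 0.05 was 806 with limma in the reported fit) and for 1 to 2 with single libraries left out. The median of LPS-induced genes was -0.052 after correction, -0.032 with median of ratios scaling, -0.0023 with quantile normalization and 0.014 to 0.065 with single libraries left out. That of LPS-repressed genes was 0.0020, -0.015 and -0.049 under the first 3, and the cause was not tested. With classes defined after median of ratios scaling, which was tried once the data had been seen, they were 0.085 and 0.066. The slope of the difference on GC content was 0 after correction, by construction, -0.13 without a filter and -0.34 to -0.14 with single libraries left out. Ifi204 turned to -0.055 after correction, with or without the block, and with single libraries left out Ddx3y ranged from -0.11 to 1.48 and Cxcl9 from -0.21 to 0.030. The number of lists with a median above 0 was 12 of 31, and 9 to 17 under the alternatives. The median kept its sign in 28 lists under correction and both other scalings, in 22 with single libraries left out and in 20 under all of these. For the 76 other named genes, 17 of 832 values gained a call and 2 turned sign under alternatives that keep every library, and 23 of 304 values gained a call, most of them without Treml4-/- replicate 1, and 3 turned sign with single libraries left out. Under the alternatives not given here, the counts of called genes, the medians of both LPS classes, the slope and the number of lists above 0 stayed within 1.5 times the reported count or within the spread between replicates.

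The labels number the replicates alike in all groups but do not say what a number shares. Across genes, the difference between replicates 1 and 2 in wt correlated with that in Treml4-/- by -0.26 at M0, 0.30 at LPS 8 h and 0.06 at LPS 12 h, so the numbers were not taken to pair the samples. A replicate block in the fit gave 12 called genes, the 11 and Tlr13. With the block and GC content and length correction 17 were called, and the medians of LPS-induced and LPS-repressed genes were again -0.052 and 0.0020 and the slope 0. At 3 reads per library, levels under about 0.05 to 0.06 CPM could not be told from 0.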
